A study of Arabidopsis thaliana with 12 samples.

Results

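The genes described are 6 nuclear genes of Arabidopsis thaliana that encode proteins of the plastid ribosome, the ribosome inside the chloroplast. They were taken by locus from the array's features that GEO's annotation assigns to 1 gene, and they are 6 of 691 such genes or features and of 3438 genes or features tested. AT4G01310 (protein L5), AT3G54210 (L17), AT1G29070 (L34) and AT5G65220 (L29) belong to the large ribosomal subunit, and AT1G64510 (S6) and AT3G13120 (S10) to the small subunit. A list of plastid ribosomal proteins written for this purpose named 27 large subunit genes and 14 small subunit genes, so most of the ribosome is not represented here. Each gene rests on a single feature.

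The study measured total RNA from 6 samples of the pam46 mutant and 6 samples of wild type (WT), both in ecotype Columbia 0. The labels describe pam46 as altered in photosynthesis, with a defect in a protein that is not known. The mutated gene, the kind of allele, the number of lines, the tissue, the plants' age and the growth conditions are not stated in the sources used here. Neither is it said that the samples are separate plants, so the tests speak only of the spread among these 12 samples, and that spread may be technical.

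The chloroplast ribosome is of the bacterial type. Some of its proteins are encoded in the plastid genome and the others in the nucleus, and the nuclear ones are made in the cytosol and imported with an N-terminal transit peptide. This ribosome makes the proteins encoded in the plastid genome, which include core subunits of both photosystems and the large subunit of Rubisco. In bacterial ribosomes, L5 binds the 5S rRNA, L17 and L29 lie near the exit of the peptide tunnel, S6 lies on the platform of the small subunit and S10 in its head. The genes measured here therefore supply different places of the particle.

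The deposited values are linear spot intensities from 0 to 100, and they are printed without change unless called normalized. Summed intensities of the 12 samples differed by at most 1.11-fold, whereas median intensities were 0.199 to 0.226 in pam46 and 0.296 to 0.341 in WT. Samples were therefore brought to a common distribution (quantile normalization), and normalized values under a floor of 0.0278 were set to it before log2 was taken. Fold changes are pam46 over WT on that scale. Calls were made at an adjusted p under 0.05 in limma, a linear model fitted across all 3438 genes or features with Benjamini-Hochberg adjustment. Samples numbered 1 and 2, 3 and 4, or 5 and 6 deviated together in both groups (r = 0.26 to 0.67 within a group, across features). Errors of the 6 against 6 comparison can therefore be too small, and a comparison of 3 averages against 3 is given beside it. In whole-sample RNA, fewer cells of a type and less RNA per cell cannot be told apart.

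**Figure D1:**
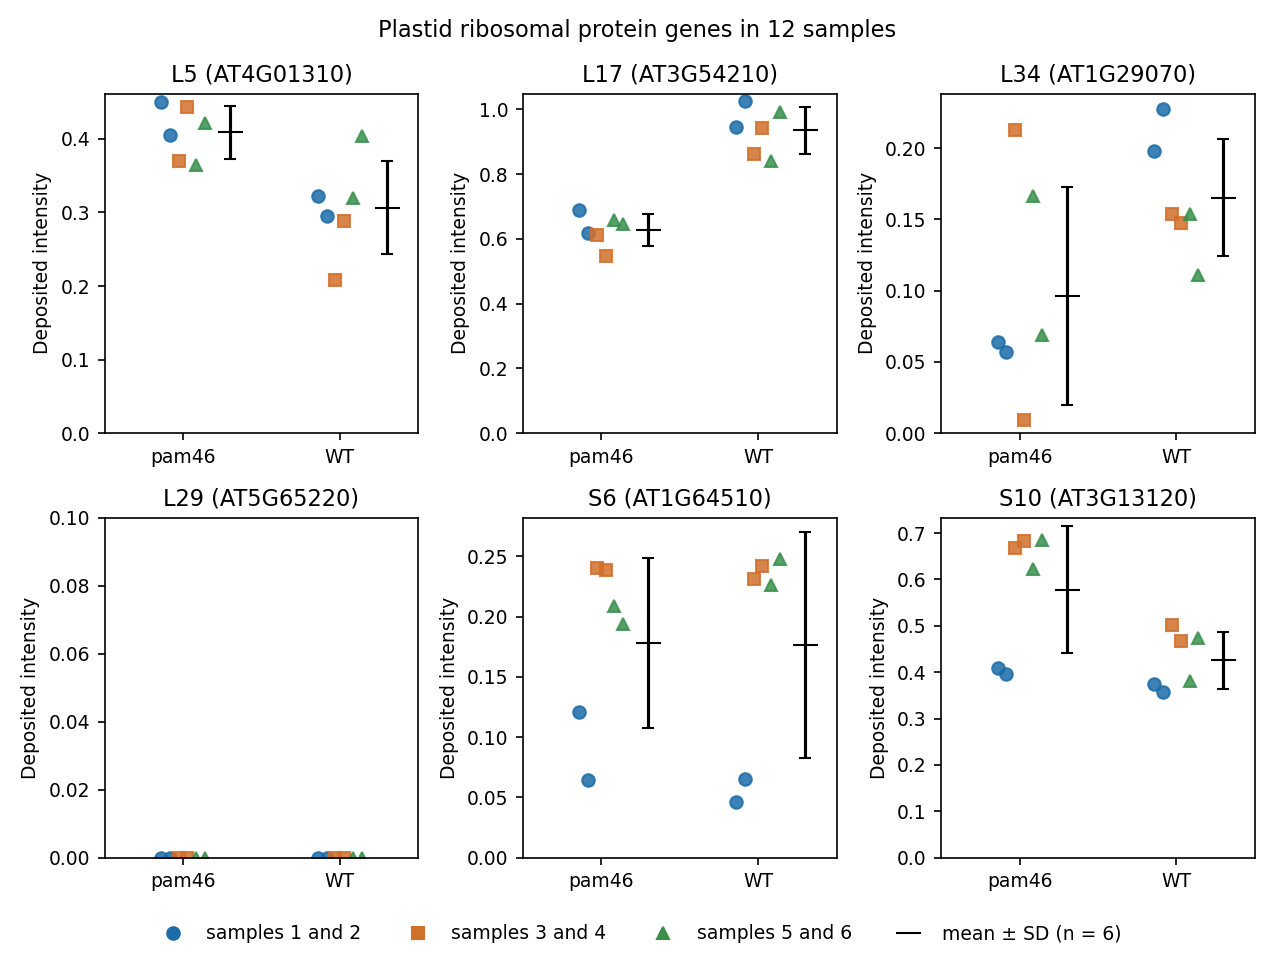
Deposited intensity (linear scale, from 0) of the 6 plastid ribosomal protein genes in pam46 and WT, 1 point per sample, with the mean and SD of 6 samples as a black bar where any sample is above 0. L17 shows no overlap between groups, samples 1 and 2 are low for S6 in both groups, and L29 is at 0 in all 12 samples. The share of all features without overlap on the deposited scale was not counted.

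L5 and S10 rose in pam46 and L17 fell, while S6 and L34 did not pass the test and L29 gave no signal. That is 3 of 6 genes called, against 41.1% of all genes or features tested (19.5% higher, 21.6% lower) and 43.8% of the features of 1 gene. The share among these 6 genes is thus near the background of this comparison. The median log2 fold change of the 5 genes with signal was 0.68, which is the value of S6, a gene not called. It was 0.031 over features of 1 gene and 0 over all features. These sets are unlike, since L29 is left out of the 5 genes whereas both backgrounds keep features at the floor. With consecutive sample numbers averaged, 1 of 6 was called, L5, against 17.1% of all features.

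Of the large subunit genes, L5 rose. Its intensity in pam46 ran from 0.364 through a median of 0.413 to 0.450, and in WT from 0.209 through 0.307 to 0.404. On this scale only the brightest WT sample, number 6, reached into the pam46 range. After normalization L5 stood at 0.424 to 0.526 in pam46 and 0.179 to 0.329 in WT, and the groups did not overlap, which was the case for 23.2% of all features. The normalized level was 1.86-fold higher in pam46, a log2 fold change of 0.89 ± 0.13 (SE, n = 6 each, 95% interval 0.62 to 1.17, limma adjusted p = 0.000220). The averages of consecutive numbers, 3 against 3, kept the call with limma (adjusted p = 0.0206). L5 was higher in pam46 in 6 of 6 sample numbers, by 0.54 to 1.30 on the log2 scale.

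L17, another protein of the large subunit, went the other way. Its intensity was 0.546 at the lowest, 0.633 at the median and 0.688 at the highest in pam46, against 0.842, 0.944 and 1.02 in WT. Every pam46 sample lay below every WT sample, on the deposited and on the normalized scale. After normalization 23.2% of all features showed no overlap. The share on the deposited scale, where median intensities were lower in pam46, was not counted. L17 averaged 0.628 ± 0.0489 in pam46 and 0.935 ± 0.0719 in WT (deposited intensity, SD, n = 6 each), a ratio of 0.672. The normalized levels lay closer together, with a log2 fold change of -0.35 ± 0.07 (SE, n = 6 each, limma adjusted p = 0.00245). L17 was lower in pam46 in 6 of 6 sample numbers, by sizes from -0.57 to -0.11. Its call ended with averaging (limma, adjusted p = 0.0647), with a random block for consecutive numbers (0.0627), and with samples scaled to equal medians, where the log2 fold change was -0.013 (0.926).

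L34 was dim and scattered. Its intensity in pam46 was 0.00899 at the lowest, 0.0666 at the median and 0.213 at the highest, and in WT 0.111, 0.154 and 0.227. Samples 3 and 5 of pam46 lay inside the WT range, and the other 4 lay below all WT samples on the deposited scale. The log2 fold change after normalization was -0.26 ± 0.49 (SE, n = 6 each, 95% interval -1.33 to 0.82, limma adjusted p = 0.718). The same sample numbers gave differences of both signs, 3 higher and 3 lower in pam46. Samples 3 and 4 of pam46, which are consecutive numbers, were 3.10 apart on the log2 scale, the widest such gap of L34. 

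L29 was listed at 0 in all 12 samples, 6 of pam46 and 6 of WT. This was the case for 16 features of the table, 8 of them with 1 gene. Nothing can be said of its level or of a difference, since the files do not state whether a 0 is a faint spot or a failed reading. The feature next in number, 1082, averaged 3.04 in pam46 and 3.19 in WT.

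In the small subunit, S10 rose. Its intensity was 0.397 at the lowest, 0.645 at the median and 0.685 at the highest in pam46, and 0.358, 0.424 and 0.502 in WT. Samples 1 and 2 of pam46, at 0.409 and 0.397, fell inside the WT range, whereas samples 3 to 6 of pam46 lay above all WT samples. The normalized level was 1.71-fold higher in pam46, a log2 fold change of 0.77 ± 0.19 (SE, n = 6 each, 95% interval 0.35 to 1.20, limma adjusted p = 0.00743). Every sample number showed the rise, by 0.54 to 1.17 on the log2 scale. The scatter of S10 lay between pairs of consecutive numbers rather than within them, with an SD of 0.12 within pairs and of 0.43 between pair means in pam46 and 0.30 in WT (log2 scale).

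With 3 averages against 3, the log2 fold change of S10 stayed at 0.77 but the call ended (limma, adjusted p = 0.119). The call also ended on the values as deposited, where the log2 fold change was 0.41 (0.0660), with equal sums (0.44, 0.0843), without numbers 5 and 6 in both groups (0.64, 0.109) and with averaging and the sample number as a block (0.77, 0.0514). A random block for consecutive numbers kept it (limma, adjusted p = 0.0225), with S10 and L5 the calls among the 6 genes, against 26.8% of all features. The features on either side in number, 1010 and 1012, were themselves higher in pam46, by 0.89 and 1.57 on the log2 scale. With the median deviation of the 5 features on either side in number subtracted, S10 was at 0.23 (limma, adjusted p = 0.171) and L17 turned to 0.28 (0.144). After this subtraction 1 of 6 genes was called, L5, against 46.2% of all features. The array's layout is not given, and the part of neighbouring spots in either result was not tested.

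S6 had the same mean in both groups as deposited, 0.178 ± 0.0706 in pam46 and 0.176 ± 0.0941 in WT (SD, n = 6 each). Its lowest, median and highest intensities were 0.0642, 0.202 and 0.240 in pam46, and 0.0461, 0.229 and 0.248 in WT. In both groups samples 1 and 2 were the lowest, and samples 3 to 6 lay at 0.194 to 0.240 in pam46 and 0.226 to 0.248 in WT. After normalization the log2 fold change was 0.68 ± 0.42 (SE, n = 6 each, 95% interval -0.243 to 1.604, limma adjusted p = 0.222).

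With the sample number as a block, which compares samples of the same number, S6 passed at the same log2 fold change (0.68 ± 0.18 SE, limma adjusted p = 0.0209), and 4 of 6 genes were called against 48.2% of all features. It did not pass when the block was combined with averaging (limma, adjusted p = 0.0556), where L5 was the only call of 6 against 20.2% of all features. Without numbers 1 and 2 in both groups it passed at 0.56 (limma, adjusted p = 0.0213). All 6 numbers had S6 higher in pam46 after normalization, by 0.27 to 1.57 on the log2 scale. On the deposited values S6 was higher in pam46 at numbers 1 and 3 only, and lower at numbers 2, 4, 5 and 6. The log2 fold change of S6 was 0.16 before normalization (limma, adjusted p = 0.851) and 0.72 with equal medians (0.299).

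**Figure D2:**
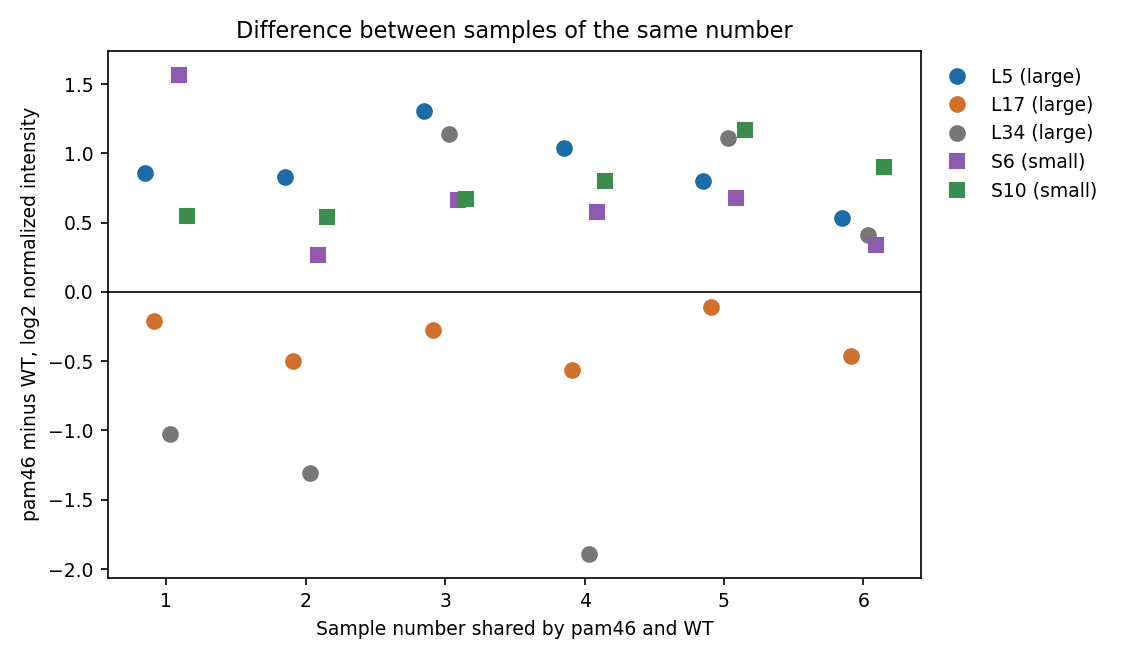
Difference in log2 normalized intensity, pam46 minus WT, between samples of the same number (1 to 6), for the 5 genes with signal, circles for the large subunit and squares for the small subunit. L5, S6 and S10 lie above 0 at all 6 numbers, L17 lies below 0 at all 6, and L34 spans -1.89 to 1.14.

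The same direction at all 6 sample numbers after normalization, which L5, L17, S6 and S10 showed, was found in 43.9% of all features. For S6 it did not hold on the deposited values. The plot of differences by sample number shows that L17 kept to a narrow band and that L34 alone crossed 0. The spread within pairs of consecutive numbers was 0.12 for S10, 0.13 for L17, 0.22 for L5, 0.28 for S6 and 0.99 for L34 (SD, log2 scale), against a median of 0.25 over all features. When all features were split by mean intensity into 4 classes of equal size, from 1 for the dimmest to 4 for the brightest, L17 fell in class 4, where 48% of features were called. L5 and S10 were in class 3 with 49.1% called, S6 in class 2 with 43.3%, and L34 and L29 in class 1 with 24%.

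Set side by side, the small subunit genes S6 and S10 had a mean log2 fold change of 0.73 and the large subunit genes L5, L17 and L34 one of 0.094. The difference, small minus large, was 0.63 and is given as a description over 5 genes, with no test. Per sample, small minus large (mean log2 normalized intensity) was -0.53 at the lowest and 1.14 at the highest in pam46, and -1.43 and 0.21 in WT. The groups overlapped, and the value was higher in pam46 in 5 of 6 sample numbers. It ran from 0.44 to 0.77 with 1 sample left out and was 0.21 with the neighbouring features subtracted.

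The large subunit genes also differed among themselves, although gaps between single genes are not comparable in size with a difference of subunit means. L5 minus L17 was 1.25 higher in pam46 on the log2 normalized scale, the widest gap among the large subunit genes. It was higher in 6 of 6 sample numbers and the groups did not overlap. Both follow from L5 lying above WT and L17 below WT, each in all samples on that scale, and are no further result. L5 minus L34 changed by 1.15 and L17 minus L34 by -0.094, both with overlap. L5 and S10, from different subunits, were within 0.12 of each other in log2 fold change. In this comparison L5 stood nearer to S10 than to L17.

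Ratios of signals within a sample do not depend on the scaling of whole samples, so they were also taken on the deposited values. The size of such a ratio has no meaning between features, and only its change does. The log2 ratio of L5 to L17 averaged -0.62 ± 0.18 in pam46 and -1.63 ± 0.27 in WT (SD, n = 6 each), 2.02-fold higher in pam46. Its range was -0.85 to -0.30 in pam46, against -2.04 to -1.30 in WT, without overlap. The log2 ratio of L17 to S10 was 0.16 ± 0.44 in pam46 and 1.14 ± 0.26 in WT (SD, n = 6 each), also without overlap, a change of -0.99. L5 to S10 stood at -0.46 ± 0.43 in pam46 and -0.49 ± 0.42 in WT (SD, n = 6 each), a difference within the spread of either group. These ratios do not say which gene of each pair moved. With the neighbouring features in number subtracted, L17 and S10 no longer stood apart, at log2 fold changes of 0.28 and 0.23, while L5 was at 1.16.

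**Figure D3:**
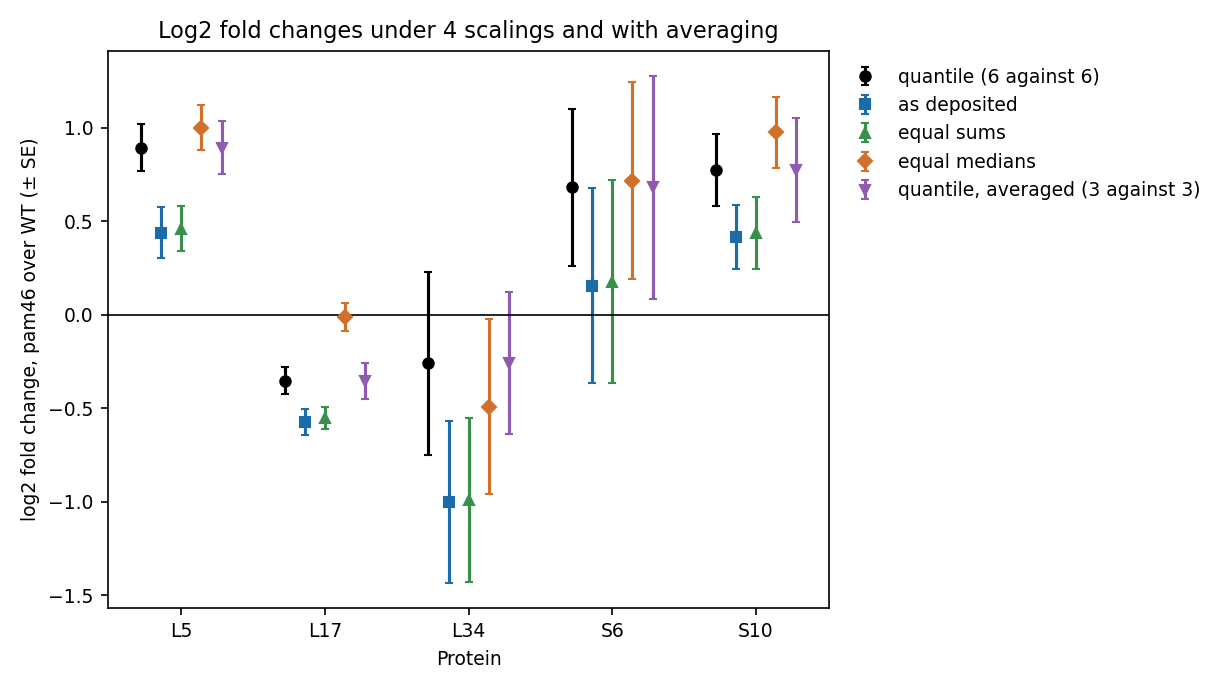
Log2 fold change, pam46 over WT, with its standard error from limma, for the 5 genes with signal under quantile normalization, no scaling, scaling to equal sums or to equal medians, and quantile normalization with consecutive numbers averaged. L5 lies between 0.44 and 0.9997 in all 5, and L17 between -0.57 and -0.013.

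How much each gene differed depended on the scaling, as the plot of log2 fold changes under several scalings shows. The median log2 fold change of all features was -0.36 without any scaling, -0.34 with equal sums and 0.089 with equal medians. Relative to that median, L5 was 0.79 higher without scaling, 0.80 after scaling to equal sums and 0.91 after scaling to equal medians. S10 stood at 0.77, 0.77 and 0.89 above it, and S6 at 0.51, 0.51 and 0.63. L17 was below it by all of these scalings, at -0.22, -0.22 and -0.10, and L34 at -0.64, -0.65 and -0.58. Calls in limma held for L5 under each scaling (adjusted p from 6.60e-05 to 0.0192), and for L17 as deposited (6.23e-05) and with equal sums (2.14e-05). They numbered 2 of 6 genes in each, against 48.7% of all features without scaling, 48.2% with equal sums and 44.8% with equal medians, where the other call was S10. L34 stayed without a call, with a log2 fold change of -1.0002 as deposited (limma, adjusted p = 0.0769).

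Other genes of plastid translation were looked up from lists. None of 12 plastid translation factors had a feature of its own, and of 19 genes for ribosome assembly and rRNA processing 2 did, AT2G25870 and AT5G46420. A search of RefSeq symbols and synonyms matched 67 genes for ribosomal proteins, 11 for aminoacyl-tRNA synthetases and 28 for translation factors. Apart from the members, none of them was among the features of 1 gene. Genes whose symbol or synonyms do not carry such a name were missed by this search. Of the measured pair, 1 fell and 1 did not pass.

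AT2G25870 encodes the plastid counterpart of YbeY, which in bacteria is an endoribonuclease needed to mature the ribosomal RNA. It is represented by 2 features, and these went opposite ways. At the brighter, feature 2727, intensity was 0.209 at the lowest, 0.232 at the median and 0.341 at the highest in pam46, and 0.390, 0.840 and 1.16 in WT. All pam46 samples lay below all WT samples as deposited. After normalization the groups overlapped, with pam46 sample 2 at -1.37 above WT sample 3 at -1.47 on the log2 scale. The log2 fold change was -1.20 ± 0.27 (SE, n = 6 each, limma adjusted p = 0.00437). At feature 2853 the intensities were 0.225, 0.290 and 0.388 in pam46 and 0.0586, 0.156 and 0.218 in WT. Here all pam46 samples lay above all WT samples on both scales, with a log2 fold change of 1.89 ± 0.36 (SE, n = 6 each, limma adjusted p = 0.00150). After normalization 23.2% of all features showed no overlap.

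Each direction was seen in 6 of 6 sample numbers. With averaging, neither feature was called (limma, adjusted p = 0.0841 for 2727 and 0.0645 for 2853). The feature with the higher mean over all 12 samples stood for the gene in the count above, so the fall of AT2G25870 is the fall of that feature. Feature 2727 was the brighter only through WT, with a mean intensity of 0.790 against 0.138 at 2853. In pam46 feature 2853 was the brighter, at 0.303 against 0.246. The rule of choice thus set the direction that was counted. Why features of the same gene disagree was not tested, and each plastid ribosomal protein gene has only 1 feature and no such check.

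**Figure D4:**
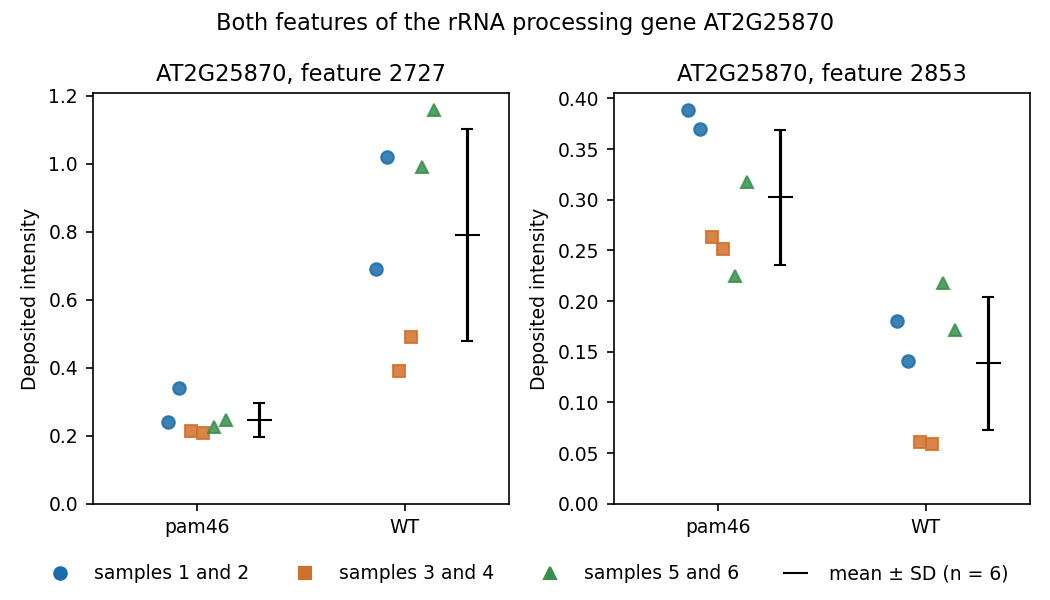
Deposited intensity (linear scale, from 0) at both features of AT2G25870, the gene of the plastid YbeY counterpart, in pam46 and WT, 1 point per sample, with mean and SD of 6 samples. At feature 2727 pam46 lies at 0.209 to 0.341 and WT at 0.390 to 1.16, and at feature 2853 pam46 lies at 0.225 to 0.388 and WT at 0.0586 to 0.218.

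AT5G46420, of the family of RimM, an assembly factor of the small subunit in bacteria, was at the floor in 5 of 6 pam46 samples and 6 of 6 WT samples. Its log2 fold change of 0.20 ± 0.20 (SE, n = 6 each, limma adjusted p = 0.451) carries no information on a difference.

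Genes with profiles most like those of the called genes were sought among 510 other single-gene features above the floor in all 12 samples. Likeness was the root mean square difference between profiles on the log2 scale, each centred on its own mean. Nearest to L5 were AT3G47650 (0.23), AT4G10120 (0.23), a sucrose-phosphate synthase gene, and AT1G32060 (0.23), the gene of the Calvin cycle enzyme phosphoribulokinase. Those distances compare with a median of 0.69 from L5 over the 510 features. AT3G18650 (0.11), AT5G19540 (0.21) and AT1G32080 (0.23), the gene of a plastid glycolate and glycerate transporter, lay nearest to S10. For L17 they were AT4G00870 (0.11), AT2G47360 (0.13) and AT1G11470 (0.13), with a median of 0.51. The profile of L17 was itself flat, with an SD of 0.21 over the 12 samples, so small distances from it are read with that in mind.

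Among the 5 genes themselves, L5 and S10 had the most similar profiles, 0.41 apart, followed by S6 and S10 at 0.48. The profiles of L5 and S10 had SDs of 0.51 and 0.52 over the 12 samples, so 0.41 is only a little below the spread of either. No plastid ribosomal protein gene was among the nearest 3 features of L5, L17 or S10, and for S6 and L34 the nearest features were not sought. L34 stood 0.79 to 1.26 from the other members, farthest from S6.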

How the data were processed

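Spot intensities of 3439 features in 12 samples were used as deposited by the authors, 0 to 100 on a linear scale; how the background was corrected and spots were laid out is not stated. GEO's platform annotation may be outdated. It gives 1 gene to 692 features, and 690 were matched to RefSeq (TAIR10.1, names only). Of 2 features of a gene the brighter was tested.

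Values were quantile-normalized, floored at the 5th percentile of positive values (0.0278, -5.17 on the log2 scale), log2-transformed and fitted by lmFit and eBayes of limma 3.58.1 (R 4.3.3, two-sided). The fit was tried on simulated data with independent samples. That trial cannot show how the errors behave where consecutive numbers deviate together. Setting values to a floor shrinks fold changes of dim genes. Same-numbered samples of both groups deviated together (r = 0.24 to 0.57 across features in 6 pairs, all over 0.1), so the numbers were used as a pairing in alternatives. The labels do not state a pairing, and consecutive numbers within a group deviated together as well (r = 0.26 to 0.67). What the numbers mean is not labelled. A block for the number is an alternative.

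Named are all members, measured genes of the lists, and the 3 single-gene features most like each called member. Members and lists were chosen with earlier results of these data known. Alternatives were other scalings, floors, a dim filter, blocks, averaging, samples or numbers left out, and subtraction of the median deviation of 5 features on either side in number. The number of arrays limits the precision. Protein and promoter sequences were not used here.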

Additional observations from a re-analysis of the deposited data

Results flagged for a closer look

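By Dixon's test at the 95% level, a sample stands apart when the gap beside it takes up too much of its group's range, which chance produces in about 1 of 20 groups. Of 33 groups of the genes named, 2 held such a sample, and none belonged to a plastid ribosomal protein gene. At feature 2727 of AT2G25870, sample 2 of pam46 had a log2 normalized intensity of -1.37, above a range of -1.88 to -1.79 in the remaining pam46 samples. For AT5G46420 it was sample 4 of pam46, with -3.95 against the floor value of -5.17 elsewhere in pam46, a pattern in which any reading above the floor is picked out.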

How the results depend on the processing

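Of 26 alternatives, L5 was called in 26, L17 in 21, S10 in 20, S6 in 2 and L34 in 0. The count of 1413 changed features was 587 with consecutive numbers averaged, 693 with averaging and the replicate block, and 922 with a random block (correlation 0.61), and the count of 3 ribosomal protein genes was 1 with averaging with or without the block and 1 with neighbour correction. Averaging has fewer samples, and other causes were not tested. The replicate block alone changed no call among the 5 genes with signal other than S6. Higher against lower calls were 669 and 744, but 373 and 1301 without scaling, 382 and 1274 for equal sums, and 899 and 642 for equal medians. Signs turned, with the cause not tested, for L17 (0.28) and AT4G00870 (0.23) and AT5G19540 (-0.20) with neighbour correction, for AT4G00870 (0.31) and AT2G47360 (0.36) with equal medians, and for L34 with the floor at the 20th percentile (0.020), without pam46 sample 4 (0.066, and otherwise down to -0.55 with a sample left out) or without numbers 1 and 2 (0.19). Leaving out single samples gave counts of 1315 to 1390, and L5, L17 and S10 stayed called in all 12 cases. Signal over background could not be judged from these values.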
